A study of Mus musculus with 4 samples.

Results

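Very broad enriched domains were described: stretches of a promoter array longer than 5000 bp over which immunoprecipitated (IP) DNA lay above input. The antibody of the IP was to p53. Of 11210 bound regions on 2 array designs, 268 (2.39%) were that long, 130 of 5480 on design 1 and 138 of 5730 on design 2. A window was 3 neighbouring probes spanning at most 1000 bp. It counted as bound when, in at least 1 of the 2 conditions, its log2 ratio of IP over input averaged 1 or more above the array's median, with 2 or more of the 3 probes reaching 1. Overlapping bound windows, and those up to 500 bp apart, were joined, and joined regions over 5000 bp were kept. The domains were thus chosen by the measured ratios of both conditions, so their levels are a description and carry no test.

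The arrays came from R1E, an embryonic stem cell line of the mouse grown with 1000 units/ml leukaemia inhibitory factor, which keeps such cells undifferentiated. They were either left untreated for 8 h or given 0.5 µM adriamycin (doxorubicin), a drug that breaks DNA, for as long. Cells were fixed with 1% formaldehyde, and their chromatin was sheared by sonication and pulled down with 10 µg of antibody to p53. Input was labelled with Cy3 and IP DNA with Cy5 after amplification by ligation-mediated PCR, with no dye swap. A condition had 1 array per design, so there were 4 arrays, no replicates and no test, and their number limits the precision. Slide and condition cannot be told apart, since no slide carried more than 1 array. No array with another antibody or with cells lacking p53 was analysed here, so whether p53 itself lay on the domains was not tested. The stated question of the study was where p53 binds without and with DNA damage.

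The transcription factor p53, held low in unstressed cells by degradation, is stabilised when DNA is damaged. It binds a short DNA element as a tetramer and activates genes of cell cycle arrest, DNA repair and cell death. A single bound element usually gives a ChIP peak about as wide as the sheared chromatin fragments, so a signal spread over several kilobases holds many neighbouring fragments. In embryonic stem cells p53 is present without added damage and is known to act on genes of differentiation as well.

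Across both designs the log2 ratios had standard deviations (SD) of 1.06 and 1.08 in the untreated arrays, and of 0.94 and 0.91 in the adriamycin arrays. The adriamycin arrays were thus less spread out, and this touches every difference given below. A control probe printed at 480 spots per array had an SD of 0.16 to 0.29. The sources used here do not give the genome build of the probe positions, and the files name no genes, so the domains are named by position as deposited.

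The domains were 5022 to 27724 bp long with a median of 6967 bp, and held 23 to 144 probes with a median of 37. Depletion rarely reached this length. With the sign of the ratios turned, the same rule gave 11549 regions, of which 1 was over 5000 bp and 28 were 3000 to 5000 bp long, against 268 and 541 bound ones. Just under the limit lay regions of 4970 bp on chromosome 5 from 4761214 to 4766183, of 4982 bp on chromosome 8 from 11309243 to 11314224, and of 4991 bp on chromosome 13 from 73724151 to 73729141. Their region means were 2.45, 1.83 and 1.92 untreated. Just over it lay regions of 5022 bp on chromosome 15 from 72372158 to 72377179, of 5034 bp on chromosome 14 from 11136884 to 11141917, and of 5065 bp on chromosome X from 49299358 to 49304422. These had 2.58, 3.40 and 2.29.

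Most of the domains ended where the array ended. The array tiles separate intervals around promoters, each a run of probes with no gap over 1000 bp, and 227 of the 268 domains (84.7%) reached at least 1 end of their interval. In 95 of them the domain filled the interval from end to end, in 132 it met 1 end, and in 41 it met none. Among regions of 3000 to 5000 bp, 238 of 541 (44.0%) met an end, and among those of 1000 to 2000 bp, 335 of 2432 (13.8%). At the 322 edges that met an end, the outermost window still had a mean of 2.60 ± 0.96 untreated and 2.31 ± 0.90 with adriamycin (SD over edges). At the 214 edges inside an interval it had 1.26 ± 0.48 and 0.94 ± 0.59. At the cut edges the signal was therefore on average still high in the outermost window, and the measured length of cut domains is a lower limit. The contrast between the kinds of edge is partly set by the rule. An edge inside an interval lies where windows stop being bound. The 95 domains cut at both ends were also the highest, with median region means of 3.04 untreated and 2.69 with adriamycin. The 132 cut at 1 end had 2.57 and 2.28, and the 41 uncut ones 1.89 and 1.65.

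**Figure D1:**
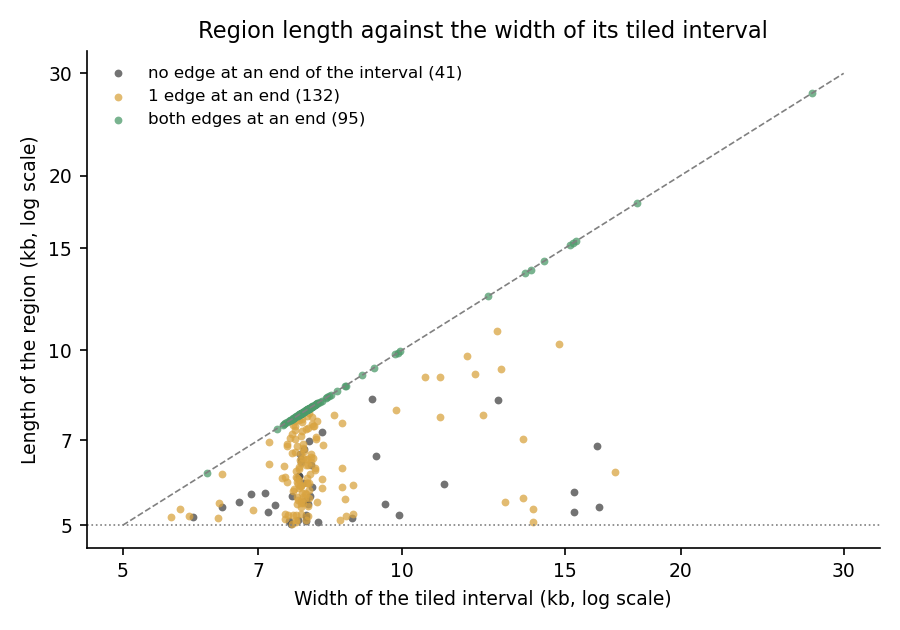
Length of each of the 268 domains (vertical axis, kb, log scale) against the width of the tiled interval it lies in (horizontal axis, kb, log scale), coloured by how many of its edges meet an end of the interval. The dashed line marks equal length and width, and the dotted line the limit of 5 kb. The 95 domains cut at both ends lie on the dashed line, and only 41 lie clear of both ends.

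The width of the intervals set how long a domain could be. The 10373 intervals over 5000 bp included 266 (2.56%) with a domain, and 2 of these, on chromosomes 4 and 18, held a pair of domains. A domain was present in 12 of 3047 intervals of 5000 to 7000 bp (0.394%), in 171 of 5266 of 7000 to 8000 bp (3.25%) and in 55 of 1267 of 8000 to 10000 bp (4.34%). It was present in 12 of 517 of 10000 to 13000 bp (2.32%) and in 16 of 276 wider ones (5.80%). Chromosome 2 held the most domains, 34, in 3.94% of its intervals over 5000 bp. Chromosome 14 had a higher share, 4.43%, with 17 domains, followed by chromosome 12 with 4.15% and 14 domains. At the low end, chromosome 16 had 4 domains (1.23%), chromosome 7 had 10 (1.24%) and chromosome X had 6 (1.65%).

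The longest domain lay on chromosome 2 from 74457946 to 74485669, covered 27724 bp with 144 probes and filled its interval. Its region mean, the mean log2 ratio over all its probes, was 3.12 ± 1.19 untreated and 2.90 ± 1.13 with adriamycin (SD over probes, which are not replicates). The second, on chromosome 15 from 102789619 to 102807549, covered 17931 bp and had 3.25 ± 1.08 and 2.86 ± 0.80. The third, on chromosome 2 from 105464323 to 105479744, covered 15422 bp and had 3.17 ± 1.06 and 2.78 ± 1.04. Each of these 3 was continuous in both arrays, apart from an outer part of the third that was not bound with adriamycin, where the bound stretch was 13848 bp.

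Of the 10 longest, 3 were neighbours on chromosome 6. The first ran from 52085480 to 52099741 (14262 bp), the second from 52128415 to 52143627 (15213 bp) and the last from 52154568 to 52169883 (15316 bp). Their region means were 2.86, 3.04 and 3.26 untreated and 2.79, 2.90 and 2.96 with adriamycin. Between 97.6% and 100% of their probes were at 1 or more in either array. The domain on chromosome 7 from 70231792 to 70245573 (13782 bp) had 2.84 and 2.75. Close behind the longest one on chromosome 2, another from 74487432 to 74501023 (13592 bp) had 3.54 and 3.29. On chromosome 11, the domain from 96109818 to 96122203 (12386 bp) had 3.36 and 2.93, with every probe at 1.61 or more in both arrays. The last of the 10, on chromosome 18 from 80867826 to 80878636 (10811 bp), was the lowest of them at 2.04 and 1.86. It was also the only one of the 10 that did not fill its interval.

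Most domains stood alone, 225 of the 268, and 43 lay within 100000 bp of another domain, in 14 groups. The largest group held 7 domains on chromosome 6 between 52085480 and 52245478, which together covered 74912 bp of a stretch with 9 tiled intervals. The next held 6 on chromosome 15 between 102743943 and 102844504 (56198 bp), 5 on chromosome 11 between 96004929 and 96162357 (42921 bp) and 4 on chromosome 2 between 74457946 and 74547171 (58131 bp). A group of 3 lay on chromosome 8 between 123965209 and 124016082. In all 14 groups, pairs included, every tiled interval wider than 5000 bp held a domain. The intervals at the ends of a group do so by construction, since a group starts and stops at a domain. Region means within the 5 groups named here ran from 1.68 to 3.54 untreated and from 1.73 to 3.33 with adriamycin. As background, the Hox clusters of the mouse, rows of homeobox genes that set position along the body axis, lie on chromosomes 2, 6, 11 and 15. The positions were not matched to genes here.

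Inside a domain the mean signal rose from the edge inward over the outer parts and was nearly level from the third of 5 mirrored parts to the centre. With each domain cut into 10 equal parts and mirrored parts averaged, the outermost pair had a mean of 2.12 ± 0.76 untreated and 1.83 ± 0.78 with adriamycin (SD over 268 domains). The next pair had 2.57 and 2.31, the third 2.77 and 2.51, the fourth 2.76 and 2.54, and the central pair 2.80 and 2.53. The averaged profile thus had no central summit in either condition. In 227 domains an end of the interval set at least 1 edge, so their centre need not be that of the signal. Averaging over domains also hides summits that lie at different places. The difference between conditions was about as large at the edge as in the centre, at -0.29, -0.27, -0.26, -0.22 and -0.28 from the outermost pair inward.

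The shoulders were low where the array went on. Over the 1000 bp beyond the 214 edges inside an interval, the median was 0.13 untreated and 0.16 with adriamycin, against region medians of 2.67 and 2.40 inside. In the first 250 bp the mean was 0.02 ± 0.71 untreated and 0.22 ± 0.49 with adriamycin (181 edges), and in the next 250 bp 0.17 ± 0.78 and 0.18 ± 0.58 (156 edges). Between 750 and 1000 bp it was 0.24 ± 1.13 and 0.17 ± 0.99 (122 edges). Farther out it was 0.39 and 0.26 between 1250 and 1500 bp (98 edges), and 0.38 and 0.06 between 1500 and 1750 bp (91 edges). The designs differed: over the first 1000 bp the means were 0.30 untreated and 0.29 with adriamycin on design 1. On design 2 they were 0.08 and 0.19. The step from inside to outside is partly set by the rule, since a bound window next to an edge would have been joined to the domain.

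**Figure D2:**
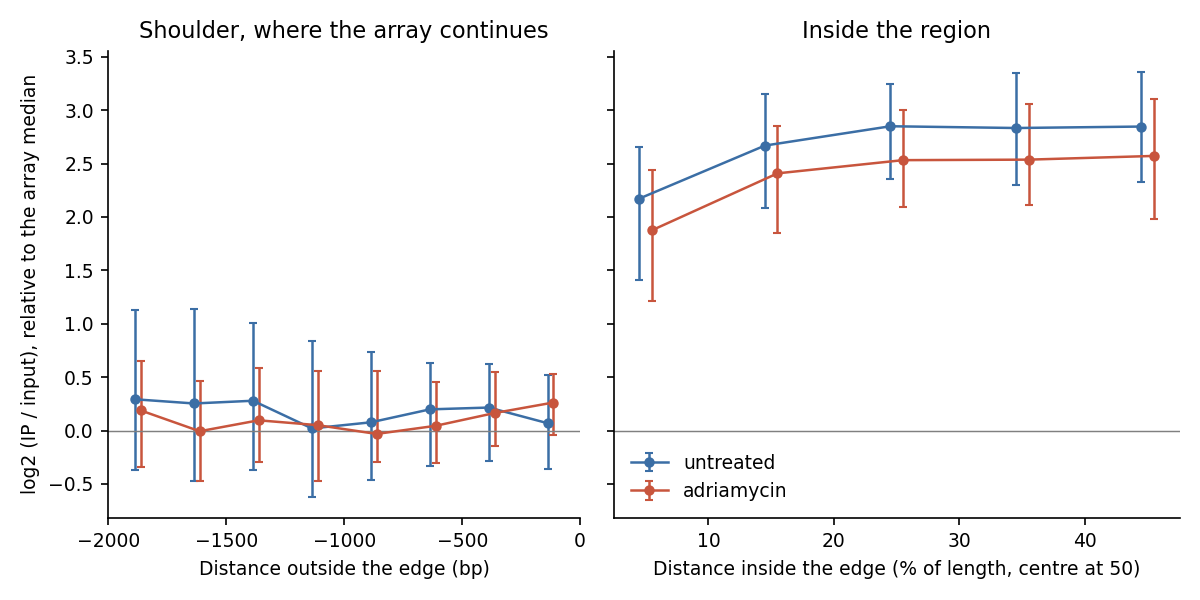
Median log2 ratio over domains, relative to the array median, in the untreated (blue) and adriamycin (red) arrays, with bars from the lower to the upper quartile over domains. The left panel gives steps of 250 bp outside the edges that lie within an interval and the right panel 10 equal parts, mirrored, from edge to centre. Inside, the medians lie between 1.88 and 2.85, and outside close to 0. Untreated lies above adriamycin throughout the inside, and the medians over whole domains change this order when the arrays are scaled to equal spread.

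Region means ran from 0.81 to 3.86 untreated and from 0.68 to 3.51 with adriamycin. A mean of at least 2 was reached by 215 domains untreated and 190 with adriamycin, and a mean of at least 3 by 83 and 27. Over all bound regions, 631 (5.63%) and 628 (5.60%) reached 2, and 109 (0.97%) and 50 (0.45%) reached 3. In the median domain, 92.8% of probes untreated and 92.7% with adriamycin were at 1 or more. The rule itself holds these shares high, since it asks for windows at 1. At 3 or more the shares were 41.3% and 28.0%. No spot of any domain was saturated, and 14 domains (5.22%) in each condition held a spot not well above background. Of all bound regions, 14.3% untreated and 10.8% with adriamycin held such a spot.

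Single domains were not flat. Untreated, 180 of the 268 had at least 2 separate stretches of windows at 3 or more, and 24 had none. With adriamycin 146 had at least 2 and 51 had none. At a level of 2, the untreated arrays had at least 2 stretches in 160 domains and the adriamycin arrays in 144. Of all bound regions, most of them much shorter, 2.39% untreated and 1.78% with adriamycin had at least 2 stretches at 3. None at 3 was found in 93.6% and 93.4%, and at least 2 at a level of 2 in 4.09% and 2.82%. Probe by probe within a domain, untreated and adriamycin ratios correlated with a median Pearson r of 0.79 over the 268 domains. With a running mean of 5 probes it was 0.90, and for what was left after subtracting that mean it was 0.59. These probes share the sequence, the amplification and the printing of 1 array design, so the correlation is only a description. For the 413 regions of 1000 to 2000 bp with a value, the median r was 0.55.

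The longest domain shows this pattern. Its 144 probes ran from 0.11 to 5.25 untreated and from -0.83 to 5.20 with adriamycin, with r = 0.87 between the arrays. Cut into 4 equal parts, it had means of 2.99, 3.14, 2.46 and 3.90 untreated and 2.76, 3.07, 2.17 and 3.58 with adriamycin. The last part was the highest and the third the lowest in both arrays. It had 7 separate stretches at 3 or more untreated and 6 with adriamycin.

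The highest domain, by the mean of both arrays, lay on chromosome 12 from 57608221 to 57616133 and filled its interval of 7913 bp. It had 3.86 ± 0.83 untreated and 3.51 ± 0.48 with adriamycin. Its 46 probes ran from 1.94 to 5.26 and from 2.03 to 4.33, so none was near 1. Domains on chromosome 2 followed, from 115756397 to 115762080 with 3.69 and 3.39 and from 146875536 to 146883291 with 3.63 and 3.38. On chromosome 5, the domain from 38110184 to 38117912 had 3.73 and 3.31, and that from 67375987 to 67381866 had 3.41 and 3.33. On chromosome 19, the one from 43660328 to 43668008 had 3.57 and 3.38. The other 4 of the 10 highest were on chromosome 2 from 74487432, on chromosome 6 from 52172937 (3.47 and 3.33), on chromosome 1 from 78077625 (3.54 and 3.25) and on chromosome 4 from 22576656 (3.53 and 3.15). In all 10 the untreated array had the higher region mean, by 0.08 to 0.42, and in all 10 this order turned when the arrays were scaled to equal spread.

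After adriamycin most domains had a slightly lower ratio. The difference of region means, adriamycin minus untreated, ran from -0.70 to 0.58 with a median of -0.29. It was below 0 in 244 of the 268 domains (91.0%), against 53.3% of all bound regions. It was below 0 in 120 of 130 domains on design 1 (median -0.30) and in 124 of 138 on design 2 (median -0.26). The direction depended on the scale: with the arrays of a design scaled to equal spread the median was 0.24 and 48 domains were below 0. With normexp background correction the median was 0.21, and the designs went opposite ways, with medians of -0.61 and 0.56.

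A change of 2-fold or more, 1 on the log2 scale, was found in 0 domains in either direction. With normexp 4 of the 268 were that much higher, and with equal spread 2 were. Over all 11210 bound regions, 8.65% were that much higher and 23.2% that much lower by the region mean. Regions over 5000 bp average a median of 37 probes and all regions a median of 4, so these shares compare means of unequal error. By the single window of highest mean, which always has 3 probes, 27 domains (10.1%) were lower by at least 1 and 0 were higher, against 25.6% and 11.8% of all regions. Some window inside the domain was lower by at least 1 in 168 domains (62.7%) and higher by at least 1 in 33 (12.3%). Over all bound regions the shares were 32.9% and 18.9%, and the domains hold many more windows per region.

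Over the 268 domains, the difference of region means correlated with the change of the IP signal at r = 0.67. With the change of the input signal it correlated at r = -0.43. Both changes enter the difference by construction, and what lowered the ratios was not tested. Taken alone and centred on its own array median, the IP signal was lower with adriamycin in 249 of 268 domains, with a median change of -0.31, against 44.8% of all bound regions. The input signal was lower in 140, against 32.1% of all bound regions. The designs differed in this, as the input was lower in 92 of 130 domains on design 1 and in 48 of 138 on design 2. The IP signal was lower in 126 and 123 of them. Over the 268 domains, the untreated and adriamycin region means correlated with r = 0.94. The difference was below 0 in all 53 domains with a mean of both arrays of 3 or more (range -0.60 to -0.08). Among the 15 domains below 1.5 it was above 0 in 5, with a range of -0.66 to 0.56.

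**Figure D3:**
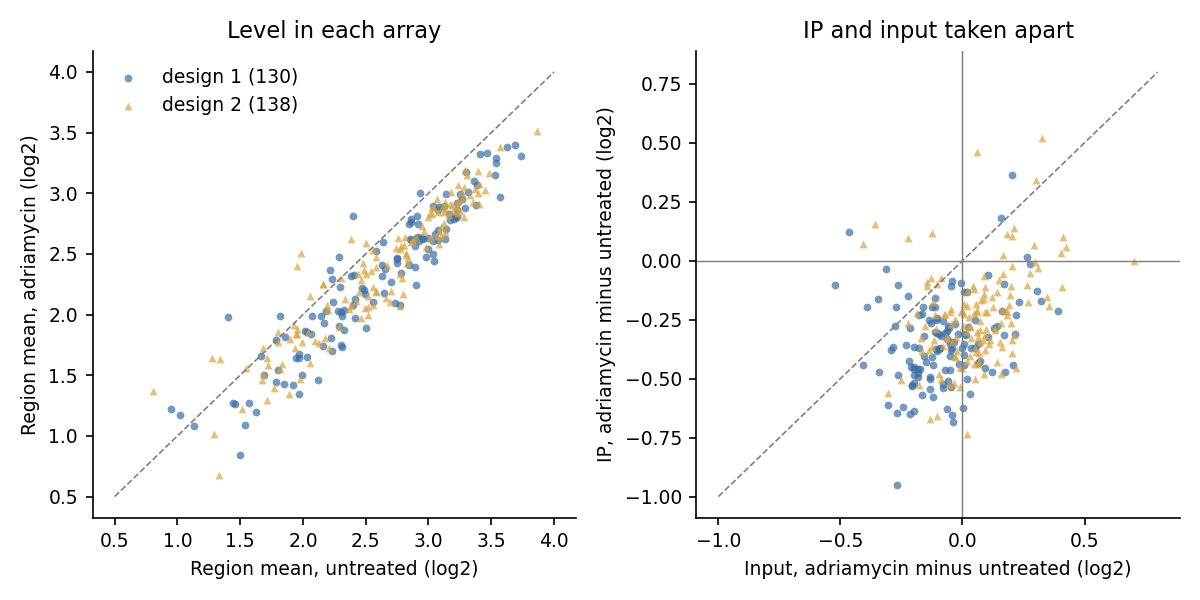
Left, region mean with adriamycin against region mean untreated, both as log2 ratio relative to the array median, for the 130 domains of design 1 (blue circles) and the 138 of design 2 (yellow triangles), with the line of equality dashed. Right, the change of the IP signal against the change of the input signal, adriamycin minus untreated on the log2 scale, where points under the dashed line have a lower ratio. Points lie below the left line in 244 of 268 domains, which turned to 48 when the arrays were scaled to equal spread. IP changes lie below 0 in 249, and input changes on both sides of 0.

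The largest fall of a region mean was on chromosome 11 from 96084723 to 96090046, from 2.77 ± 1.10 to 2.07 ± 0.92, a difference of -0.70. Over 4 equal parts of its length, the fall was larger in the first 3 (-0.82, -0.91 and -0.73) than in the last (-0.37), and its IP signal changed by -0.73 and its input by 0.02. It lies in the group of 5 on that chromosome. On chromosome 2, the domain from 73068911 to 73075247 went from 2.77 ± 1.21 to 2.08 ± 0.90 (-0.69). The IP signal changed by -0.95 and the input by -0.27. The domain from 160055805 to 160062900 went from 2.90 to 2.25 (-0.66). That from 180819523 to 180825426 went from 2.12 to 1.47 (-0.66), with -1.05, -1.45, -0.28 and 0.42 over its 4 parts from left to right, so it fell on the left and rose on the right.

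The other of the 5 largest falls, on chromosome 14 from 113970901 to 113976378, was of another kind. Its region mean went from 1.33 ± 0.90 to 0.68 ± 1.02, with -1.99, -0.48, 0.21 and -0.32 over its 4 parts from left to right. The fall thus lay mostly in the first part. Its probes did not follow each other between the arrays (r = -0.04), and its IP signal did not move (-0.00) while its input rose by 0.70. With 1 input common to both arrays its difference was 0.01. It held 1 spot not well above background in the untreated array, and it was the lowest of all 268 domains by the mean of both arrays. With the same spread in both arrays the 5 falls kept their sign (-0.41 to -0.10). With normexp those on chromosomes 11 and 14 had 0.17 and 0.11.

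Ratios were higher with adriamycin in 24 domains. The IP signal rose in 10 of these, and the input fell in 19. On chromosome 4, the domain from 99143023 to 99150590 had the largest rise, from 1.40 ± 0.72 to 1.98 ± 0.81 (0.58). Its IP signal changed by 0.12 and its input by -0.46. Untreated it fell into 2 bound pieces of which the longer was 3343 bp, and with adriamycin it was 1 piece of 7568 bp. On chromosome 14, the domain from 63539825 to 63546333 went from 0.81 ± 0.72 to 1.37 ± 0.40 (0.56). There the IP signal changed by 0.16 and the input by -0.36. Untreated, 41.2% of its probes were at 1 or more, and with adriamycin 79.4% were.

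Also on chromosome 14, the domain from 121602908 to 121613165 (10258 bp) went from 1.98 ± 1.00 to 2.51 ± 0.92 (0.52). The rise was even along its length, 0.53, 0.58, 0.48 and 0.50 over its 4 parts. Its IP signal changed by 0.07 and its input by -0.41. On chromosome 3, the domain from 131094160 to 131101964 went from 2.40 ± 0.94 to 2.81 ± 0.88 (0.41), while the IP signal changed by -0.10 and the input by -0.52. In these 4 domains the input moved more than the IP. With 1 common input their differences were 0.09, 0.17, 0.08 and -0.13, in the order given.

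The domain on chromosome 17 from 28818276 to 28823437 was the exception among the 5 largest rises, as its IP signal rose by 0.46 and its input by 0.06. Its region mean went from 1.95 ± 1.78 to 2.40 ± 1.38 (0.45), and with a common input the difference was 0.47. On its left side the highest probe, at 28818743, had 5.87 untreated and 5.31 with adriamycin. Past a dip, the probe at 28819437 had 4.79 and 4.69. On the right side the highest adriamycin probe, at 28822178, had 3.43 untreated and 4.42 with adriamycin. From left to right its 4 parts changed by -0.13, 0.26, 0.45 and 1.06, the last going from 0.95 to 2.01. Untreated, the domain was 2 bound pieces of which the longer covered 2183 bp, and with adriamycin it was 1 piece of 5162 bp. Its length over 5000 bp thus came from the adriamycin array. With loess within each array its difference was 0.14.

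**Figure D4:**
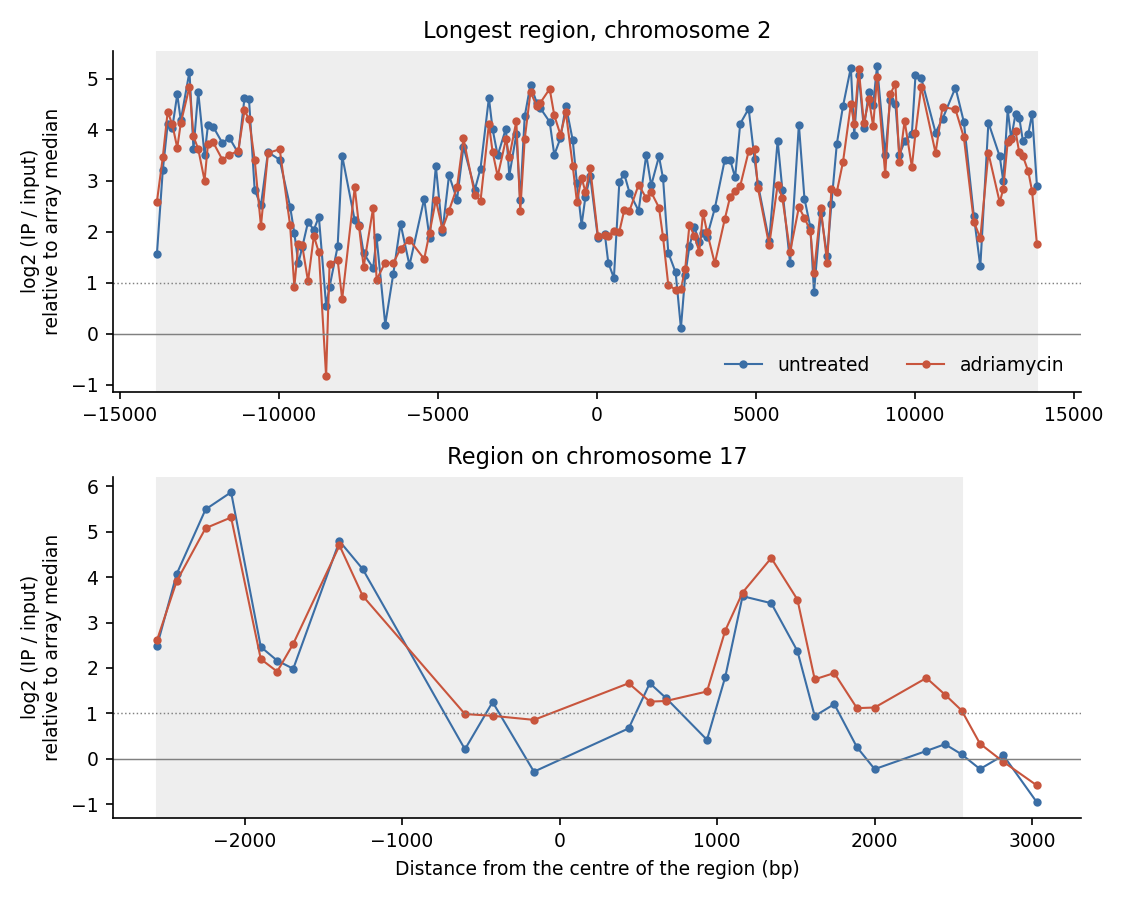
Log2 ratio of every probe, relative to the array median, against distance from the centre of the domain in bp, for the longest domain on chromosome 2 (top) and the domain on chromosome 17 (bottom), untreated in blue and adriamycin in red. Grey marks the domain, the solid line 0 and the dotted line the threshold of 1. In the top panel the arrays follow each other over the whole 27724 bp. In the bottom panel they agree on the left, where the highest probe has 5.87 and 5.31, and part on the right, where the last of 4 equal parts has means of 0.95 and 2.01.

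Each array taken alone gave fewer long domains, which follows from the rule, since a window counted when bound in either array. The longest bound piece was over 5000 bp in both arrays in 189 of the 268 domains, in the untreated array alone in 47, in the adriamycin array alone in 16 and in neither in 16. Untreated, 245 domains were 1 bound piece, 22 were 2 pieces and 1 was 3 or more. With adriamycin the counts were 244, 21 and 3, and 226 domains were 1 piece in both. The longest piece was longer in the untreated array in 108 domains, longer in the adriamycin array in 62 and of the same length in 98. Of the 24 domains with a higher ratio after adriamycin, 17 had the longer piece in that array and 3 in the untreated one. Of the 244 with a lower ratio, 45 had the longer piece with adriamycin and 105 untreated. Pieces and region means come from the same ratios, so these counts are not separate evidence. Pieces were called at the same threshold in every array, though the adriamycin arrays were less spread. These counts were not repeated with equal spread.

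Windows of like height had other median differences in long than in short regions. Windows that did not overlap were binned by the mean of both arrays, and the median difference was taken in each bin. In domains over 5000 bp it went from -0.15 in windows of 1 to 1.5 (370 windows) over -0.24 at 2 to 2.5 (564) and -0.29 at 3 to 3.5 (640) to -0.47 at 4 to 5 (141). In regions of 3000 to 5000 bp the same bins had -0.11, -0.23, -0.36 and -0.41. In regions of 1000 to 2000 bp the median was 0.12 at 1 to 1.5 (1977 windows), 0.61 at 2 to 2.5 (193) and 0.53 at 3 to 3.5 (35). At equal height the long domains thus lay lower after adriamycin than short regions did. With the arrays scaled to equal spread, the medians in the bins from 1 to 4 were above 0 in all 3 classes. In the bins at 2 to 2.5 and 3 to 3.5, the long domains had 0.21 and 0.37. Regions of 1000 to 2000 bp still lay higher there, at 1.03 and 1.19. With 1 array per condition this has no test, windows of a domain are not replicates, and the length classes were themselves formed from these ratios.

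**Figure D5:**
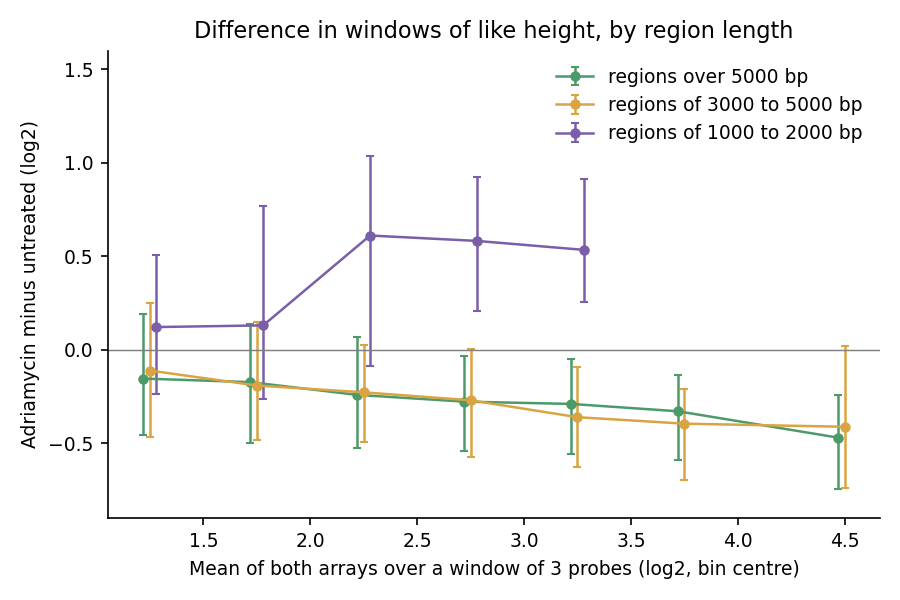
Median difference, adriamycin minus untreated on the log2 scale, in windows of 3 probes binned by their mean over both arrays, for domains over 5000 bp (green), regions of 3000 to 5000 bp (yellow) and regions of 1000 to 2000 bp (purple), with bars from the lower to the upper quartile over windows. The green and yellow medians go from -0.15 and -0.11 to -0.47 and -0.41, and the purple ones lie between 0.12 and 0.61. With the arrays scaled to equal spread those in the bins from 1 to 4 are above 0, with purple still the highest.

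As whole regions, both longer classes again had a lower median difference than regions of 1000 to 2000 bp. The median difference was -0.29 over 5000 bp, -0.22 at 3000 to 5000 bp and 0.17 at 1000 to 2000 bp, against -0.09 over all bound regions. The difference was below 0 in 91.0%, 75.2% and 41.7% of the regions of these classes. The order of the longest and the 1000 to 2000 bp class held with equal spread (0.24 and 0.42), with loess (-0.41 and -0.02) and with a common input (-0.32 and 0.23). With normexp the medians were 0.21 and 0.21, with the designs apart in the longest class as given above. There 48.1% and 38.4% of the regions were below 0. Regions of 3000 to 5000 bp had 0.17 with equal spread and 0.17 with normexp, below the longest class in both settings.

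The probes of the domains, like those of shorter bound regions, were shorter than those of the array. Probes on such arrays are shortened where the full length would bind too tightly, so probe length follows base composition. Of the 10299 probes in domains, 42.8% had under 50 bases and 26.3% the full 60 bases, against 27.4% and 41.5% of all 473503 probes. Regions of 3000 to 5000 bp had 49.6% and 21.4%, and those of 1000 to 2000 bp 48.1% and 24.7%. Ratios also went with probe length over the whole array, domains included. There the median was 0.35 untreated and 0.59 with adriamycin at 45 bases or fewer, and -0.25 and -0.28 at 60 bases. Within the domains, the probes of 45 bases had medians of 2.89 untreated and 2.69 with adriamycin, those of 46 to 59 bases 2.80 and 2.48, and those of 60 bases 2.41 and 2.18. Domains lay far above the array median in every length class, which the rule largely sets, since it asks for windows at 1. The input of the domains was brighter than that of the array in the untreated arrays. Its median was 1221 against 837 on design 1 and 1337 against 917 on design 2. Regions of 3000 to 5000 bp had 1362 and 1496 on these designs, and those of 1000 to 2000 bp 1275 and 1581. The part of probe length and input in the domains was not tested.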

How the data were processed

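Per the file headers, the authors ran Agilent Feature Extraction (10.1.1.1) on the scans, and its deposited processed signals, intensities, had background subtracted and a linear dye factor applied. The deposited files also hold a log10 ratio, left unused here. In the authors' deposited value table the values are log2 ratios. All its filled values equalled, within 1e-06, the log2 ratio of background-subtracted spot medians, so its scale and direction are known and it is not centred, with column medians of -0.94 (untreated) and -1.00 (adriamycin) for design 1, then -0.93 and -0.45 for design 2.

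Here each probe's log2 ratio of the processed IP to the processed input signal was centred by the median of its array, without loess or quantile normalization. Spots marked as outliers, control spots and probes lacking a position were dropped, which kept 236817 and 236686 probes. Alternatives with limma 3.58.1 (R 4.3.3) were loess and normexp with an offset of 50. The other steps used Python 3.11.15 with numpy 2.4.6 and pandas 2.3.3. The region rule was tested on simulated data. Domains, lists and settings were chosen with earlier results of these data known. The text names the 10 longest domains, the 10 highest, the 5 largest rises and falls, 3 regions on each side of the limit and 1 domain on chromosome 17. Gene lists were not applied, since no gene names were matched to the positions.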

Additional observations from a re-analysis of the deposited data

How the results depend on the processing

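The number of domains was 268. It was 137 with normexp, 422 at a threshold of 1.5-fold, 169 at 1.5 and 134 at 2 on the log2 scale, and 444 for lengths over 4000 bp. In all other settings run it lay between 183 and 314. For this number and the next 2 counts, domains were called anew in each setting. The count of region means higher by at least 1 was 0 in the main setting. It was 1 with normexp, with equal spread, at a threshold of 1.5-fold, with joining over 1000 bp and for lengths over 4000 bp. With a common input it was 2. Over the fixed 268 domains it was 4 with normexp, 2 with equal spread and 0 with a common input. The count of region means lower by at least 1 was 0 in all settings in which it was counted, and by the window of highest mean it was 27. Over the fixed 268 domains, the median difference of -0.29 was 0.21 with normexp and 0.24 with equal spread. In the other settings it ran from -0.49 (window of highest mean) to -0.26. Inside the domains, the median was 2.35 untreated and 1.97 with adriamycin with loess, and 1.33 and 1.28 with normexp. The offset of normexp pulls ratios of dim spots toward 0 by construction, equal spread rescales an adriamycin array that was less spread, and the cause of the other changes was not tested. Of the 29 domains named for length, height or change, 26 kept the sign of their difference with a common input, 21 with normexp, 10 with equal spread, and 29 with loess, with centring on the mode, with the deposited table, with dim or saturated probes left out and under either treatment of outlier marks. The settings of threshold, window, joining and length were not run for single domains. Domains that met an end of their interval numbered 232 and 224 with gaps of 500 and 2000 bp. Leaving out probes with an outlier mark on the local background, chosen after seeing the data, gave 260 domains. No paired analysis was possible because there was a single array per condition and design, and for the same reason no array was left out. Few probes inside the domains were dim, as at most 0.293% of those of an array were not well above background. The number of domains and their ratios still changed with normexp background correction, as given above.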
